A study of Mus musculus with 6 samples.

Results

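The mitochondrial ribosome (mitoribosome) is built from nuclear-encoded proteins, and the transcripts of these proteins were measured here in mouse oligodendrocyte precursor cells (mOPCs) after knockdown of Qk, the gene of the Quaking RNA-binding proteins. The genes described here (the members) were taken by symbol: all genes whose symbol begins with Mrpl or Mrps followed by a digit, which gave 76 of the 23038 genes in the files, 47 with an Mrpl and 29 with an Mrps symbol. mOPCs are the glial precursors of the myelinating oligodendrocytes, and were purified by immunopanning from mouse embryos of 1 embryonic stage and cultured. One group of 3 libraries came from cells transfected with control siRNA (siNC) and the other group of 3 from cells transfected with siRNA against Qk (siQk), with RNA collected after 72 h. The labels call the samples biological replicates and name several siRNAs against Qk, and which of them each siQk library received is not given in the sources used here. Strain, sex and the time in culture before transfection are not given either.

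The mitoribosome sits inside mitochondria and translates the few messenger RNAs that mitochondrial DNA encodes, all of them for subunits of the oxidative phosphorylation (OXPHOS) complexes. Its proteins are translated in the cytosol and imported, and its ribosomal RNAs are transcribed from mitochondrial DNA, so the particle needs both genomes. Some of its proteins descend from bacterial ribosomal proteins and others were added in mitochondria. In the particle, 49 of the 76 members belong to the large subunit, which holds the peptidyl transferase center, and 26 to the small subunit, which holds the messenger RNA. Mrps18a and Mrps30 are large subunit proteins despite their symbols. Mrps36 was assigned to neither subunit, since its product is known as a component of the 2-oxoglutarate dehydrogenase complex.

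The libraries held 58166490 to 141045937 tags, and polyadenylated RNA was sequenced. The smallest library, siNC replicate 1, stood apart: Rn45s, the ribosomal RNA precursor (chosen after its values were seen), took 3.11% of its tags and 0.169% to 0.389% in the other 5 libraries, and its TMM factor was the lowest. Levels are given as TMM-scaled RPKM, that is the deposited RPKM divided by the library's TMM factor, which was 0.899 to 0.987 in siNC and 1.04 to 1.07 in siQk. Changes are log2 fold changes, siQk over siNC, from edgeR's quasi-likelihood test, with the Benjamini-Hochberg adjusted p given as FDR. To be called, a gene needed a P under 0.01 together with an FDR under 0.1, adjusted over the 12505 genes tested, and "rose" and "fell" are used for called genes only. Qk itself was at 233, 214 and 165 TMM-scaled RPKM in siNC and at 48.8, 71.9 and 34.7 in siQk, so that 25.4% of its mean level remained (log2 fold change -1.98, SE 0.28, edgeR FDR = 0.00311). An exact two-sided permutation test of these values gave p = 0.1, the smallest that 3 libraries against 3 allow. For the marker counts that follow, 13.8% of all genes tested were called higher and 17.2% lower. The summed level of 8 OPC markers was 1059 to 1224 in siNC and 1166 to 1285 in siQk, with 3 of the 8 called higher and 1 lower. That of 8 mature oligodendrocyte markers was 2506 to 5253 in siNC and 935 to 1571 in siQk, where 6 of the 7 tested were called lower, and 6 of 8 cell cycle genes were called higher. Summed neuron markers were 112 to 179 in siNC and 76.4 to 115 in siQk, a sum in which Tubb3 alone reached 172. Of the 5 tested, 2 were called higher and none was called lower (median log2 fold change 0.87). These neuron values cover 7 of the 8 markers listed, since Map2 was not found under that symbol. Under its older symbol, Mtap2, that gene rose (log2 fold change 0.57), and it is in none of these values. Summed astrocyte markers were 221 to 317 in siNC and 178 to 203 in siQk, with 1 of the 7 tested called higher and 4 lower. Microglia markers summed to 0.802 to 3.45 and 0.293 to 0.390, and fibroblast and vascular markers 2.69 to 5.14 and 3.35 to 4.58, with Slc17a6 of neurons and Cldn5 of vessels at 0 in all libraries. The cultures thus held both precursor and mature transcripts, and the part of these shifts in the values of the members was not tested. In bulk RNA, fewer cells of a type and less RNA per cell cannot be told apart.

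All 76 members passed the filter on low counts and were tested. Of these, 8 were called changed, which is 10.5% of the members, beside 31% of all genes tested. Mrpl4, Mrpl32, Mrpl47, Mrps15, Mrps5 and Mrpl37 rose, beside 13.8% of all genes tested that were called higher. Mrps6 and Mrpl48 fell, beside 17.2% of all genes tested that were called lower. The median log2 fold change of the members was 0.07, and that of all genes tested was 0.01. Among the members 53 fold changes were above and 23 below 0, and among all genes tested 6402 were above and 6103 below 0. Quartiles were -0.03 and 0.17 for the members and -0.28 and 0.23 for all genes tested. Mrps6 was the single member with an absolute log2 fold change over 0.5, and 24.1% of all genes tested were past that size. With library size as the only scaling, which raises the median of all genes tested to 0.16, 17 members were called higher and 2 lower (25% of the members, beside 34.8% of all genes tested). Without siNC replicate 1, 4 members were called, 2 higher and 2 lower (5.26%, beside 25.4% of all genes tested).

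**Figure D1:**
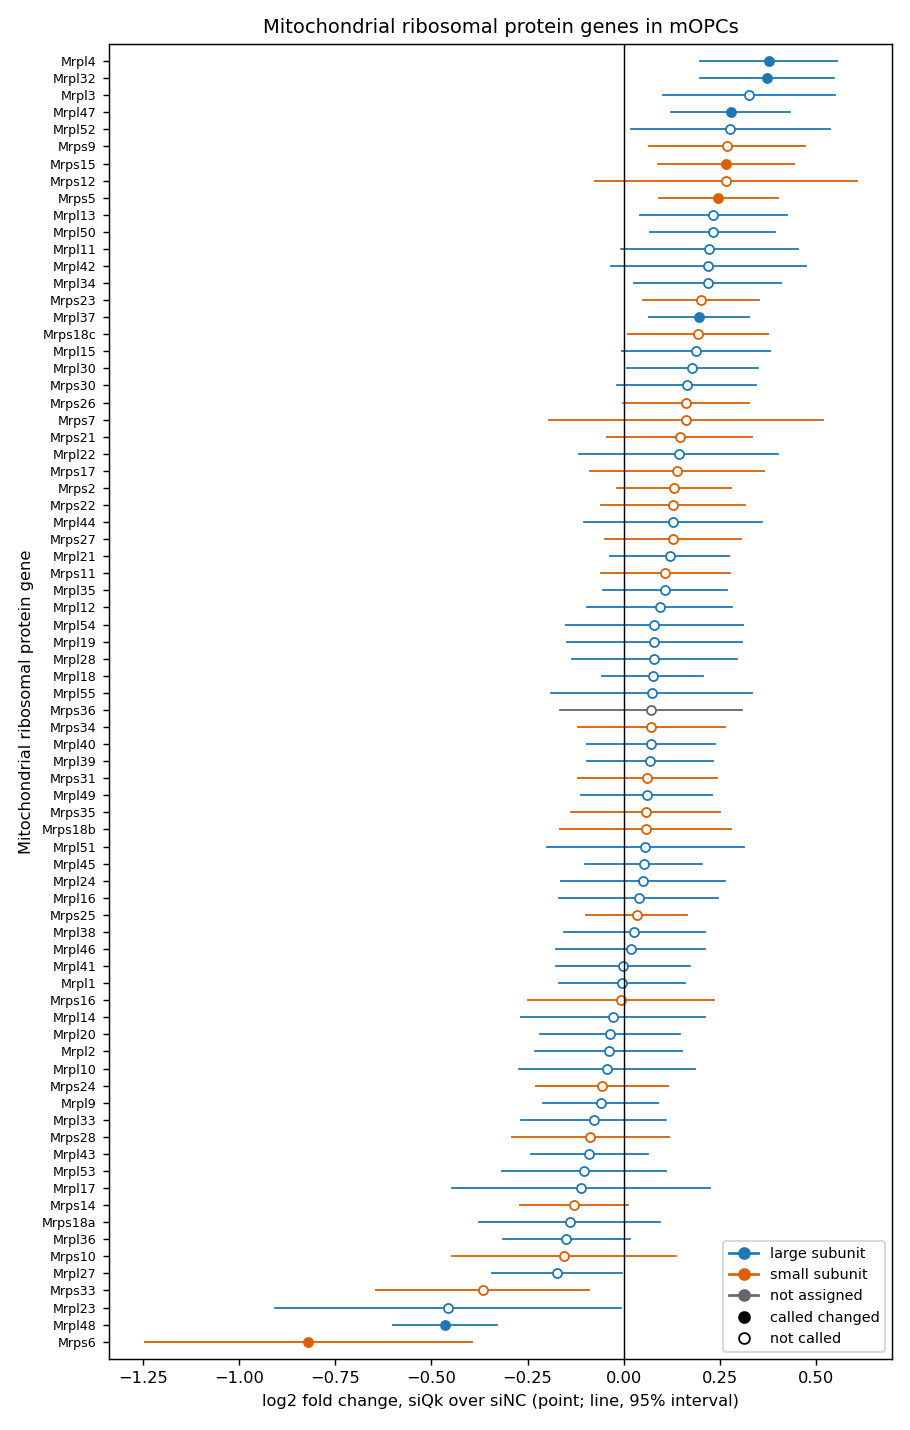
Log2 fold changes (siQk over siNC) of all 76 members in order, with lines for the 95% interval, blue for the large subunit, orange for the small subunit, grey for Mrps36, and filled points for members called changed. Most intervals cross or lie close to 0, and Mrps6 and Mrpl48 stand at the lower end at -0.82 and -0.46.

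The members were measured with small errors. The median SE of their log2 fold changes was 0.08, and that of all genes tested was 0.11. For 66 of 76 members (86.8%), the 95% interval of the log2 fold change lay wholly within 0.5 of 0, and this held for 46.3% of all genes tested. When the members were set beside the 3494 genes in the middle 80 percent of their abundance range, 30.1% of those genes were called changed, 55.4% had intervals within 0.5 of 0, and 18.1% had an absolute log2 fold change over 0.5. The mean level in siQk was within 10 percent of that in siNC by the fitted fold change for 45 members (59.2%), and for 30.9% of all genes tested. Between libraries of 1 group, the median coefficient of variation of a member was 6.48% in siNC and 3.86% in siQk. At an unadjusted p below 0.05, 20 members (26.3%) and 48.8% of all genes tested would have passed, so that 12 members lay between that limit and the call, 9 of them with higher and 3 with lower means in siQk. Library ranges did not overlap for 33 members (43.4%), 26 with siQk above and 7 with siQk below. The same held for 54.4% of all genes tested, 3482 with siQk above and 3315 with siQk below.

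Mrps6 encodes bS6m, a small subunit protein with a bacterial counterpart, and had the greatest fold change of the 76 members. Its level was 53.7, 42.5 and 69.5 TMM-scaled RPKM in siNC and 33.8, 31.9 and 28.3 in siQk. Every siQk library was below every siNC library, and the siNC libraries were spread more widely (SD 13.5, n = 3) than the siQk libraries (SD 2.81, n = 3). Mrps6 fell by 0.82 on the log2 scale (SE 0.18, edgeR FDR = 0.0138). With a P just over the limit, the call was lost without siQk replicate 2 (log2 fold change -0.83, edgeR FDR = 0.0475) and without siQk replicate 3 (log2 fold change -0.75, edgeR FDR = 0.0477). The gene lies on chromosome 16 at 92058270 to 92112227 on the plus strand (GRCm38, GENCODE M21). Slc5a3, which encodes a myo-inositol transporter and was chosen after its values were seen, lies within this interval on the same strand and shares 159 exon bases (10.4%) with Mrps6. Slc5a3 also fell: its level was 4.20, 2.87 and 4.63 TMM-scaled RPKM in siNC and 2.13, 2.79 and 2.45 in siQk (log2 fold change -0.67, SE 0.19, edgeR FDR = 0.0321). Another annotated gene of that strand, Gm49711, shares 305 bases (19.9%) with Mrps6, and how reads on shared exons were assigned to these genes is not given in the sources used here.

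Mrpl48 encodes mL48, a large subunit protein without a bacterial counterpart. Its level was 68.1, 69.2 and 66.4 TMM-scaled RPKM in siNC and 49.1, 47.7 and 50.8 in siQk. The groups were far apart relative to their spread, with SDs of 1.39 and 1.58 (n = 3 each). Mrpl48 fell by 0.46 on the log2 scale (SE 0.06, edgeR FDR = 0.00214), the lowest FDR of the members, and was called in all 15 alternative settings. In GENCODE M21 it spans 100545751 to 100608301 of chromosome 7 on the minus strand. Of its annotated exon bases, 708 (8.68%) lie opposite exons of Rab6a, a small GTPase of Golgi traffic that was chosen after its values were seen. Rab6a fell as well, from 217, 235 and 219 to 138, 125 and 142 TMM-scaled RPKM (log2 fold change -0.73, SE 0.08, edgeR FDR = 0.00133). The library kit does not mark strand, so reads from bases that both genes cover cannot be told apart. A processed pseudogene, Mrpl48-ps, lies on chromosome 4.

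Among the members that rose, Mrpl4 and Mrpl32 had the greatest changes, and both were called in all 15 alternative settings. Mrpl4 encodes uL4m, which lines the exit tunnel of the large subunit. Its level was 17.4, 14.9 and 16.9 TMM-scaled RPKM in siNC and 20.9, 21.6 and 21.4 in siQk, with all siQk libraries above all siNC libraries (log2 fold change 0.38, SE 0.07, edgeR FDR = 0.00994). Mrpl32 encodes bL32m, a large subunit protein whose import form must be cut by the mitochondrial m-AAA protease before it joins the particle. Its level was 35.7, 32.1 and 35.6 TMM-scaled RPKM in siNC and 46.2, 43.6 and 44.1 in siQk, again without overlap (log2 fold change 0.37, SE 0.07, edgeR FDR = 0.00986). Mrpl4 lies on chromosome 9 (21002738 to 21008839, plus strand) and Mrpl32 on chromosome 13 (14608184 to 14613165, minus strand).

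The other 4 members that rose had smaller changes, and each call was lost in several settings. Mrpl47 (uL29m, near the tunnel exit) was at 29.8, 29.1 and 30.7 TMM-scaled RPKM in siNC and at 37.1, 36.6 and 35.1 in siQk (log2 fold change 0.28, SE 0.07, edgeR FDR = 0.0180). Mrps15 (uS15m, which binds the small subunit ribosomal RNA) was at 22.3, 21.3 and 24.1 in siNC and at 26.7, 28.6 and 26.04 in siQk (log2 fold change 0.27, SE 0.07, edgeR FDR = 0.0304). Mrps5 (uS5m, at the messenger RNA entry) was at 31.7, 31.7 and 29.2 in siNC and at 36.1, 38.3 and 35.4 in siQk (log2 fold change 0.25, SE 0.07, edgeR FDR = 0.0264). In each of these the siQk libraries lay above the siNC libraries without overlap. Mrpl37 (mL37, a large subunit protein added in mitochondria) was at 29.2, 29.9 and 30.3 in siNC and at 34.4, 34.1 and 34.0 in siQk, with SDs of 0.54 and 0.20 (log2 fold change 0.20, SE 0.05, edgeR FDR = 0.0312). Leaving out replicate 1 or replicate 2 of either group ended the call of Mrpl47 (edgeR P up to 0.0215), and that of Mrps15 ended without any library but siNC replicate 3 (up to 0.0356). Those of Mrps5 and Mrpl37 were lost without any 1 of the 6 libraries (up to 0.0301 and 0.0406), with fold changes of the same sign throughout. Mrpl47 shares exon bases with 2 genes of the opposite strand, 452 with Actl6a and 616 with Ndufb5 (10.2% and 13.9% of its own), both chosen after their values were seen. Actl6a rose (log2 fold change 0.27, edgeR FDR = 0.0278), and Ndufb5 was not called (0.10, edgeR FDR = 0.174).

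**Figure D2:**
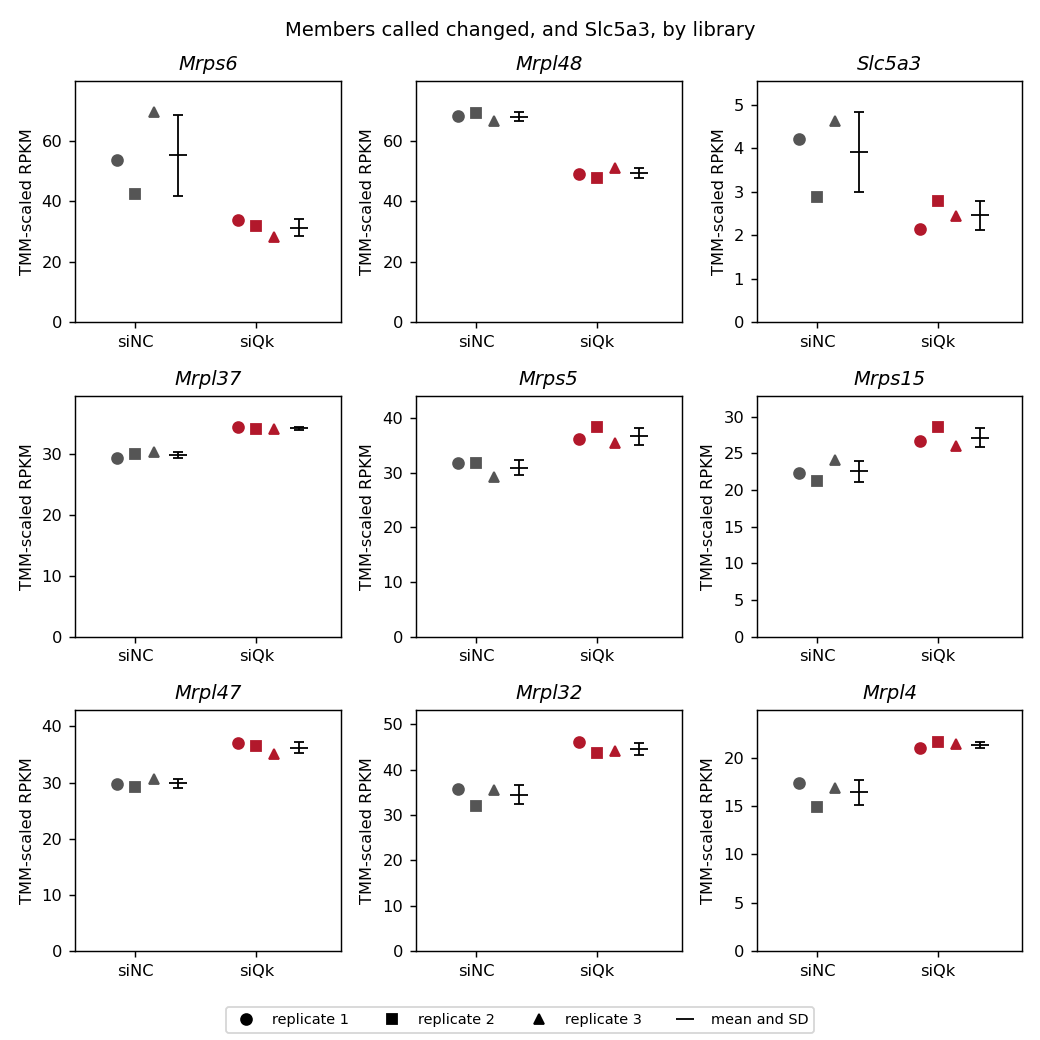
TMM-scaled RPKM in each library (circle, square and triangle for replicates 1, 2 and 3) of the 8 members called changed and of Slc5a3, with the mean and SD of each group. The siQk libraries lie below the siNC libraries for Mrps6, Mrpl48 and Slc5a3 and above them for the other 6 members, and each axis starts at 0.

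Expression levels covered a wide range among the members. The mean level in siNC ran from 2.08 to 164 TMM-scaled RPKM with a median of 29.9, and 66 of 76 members were above 10. Mrpl20 (bL20m, an early assembling protein of the large subunit) was highest at 164 ± 13.9 (SD, n = 3) in siNC and 160 ± 5.91 in siQk, and the groups overlapped. Mrps21, a small subunit protein, followed at 104 ± 9.24 and 115 ± 2.12, then Mrpl30 at 79.3 ± 4.61 and 89.7 ± 4.51, Mrps7 at 74.7 ± 13.2 and 83.4 ± 11.6, and Mrpl48. Mrpl30 and Mrps7 did not differ from each other in siNC beyond their spread. Mrps21 and Mrpl30 were higher in every siQk library than in any siNC library, but missed the call (edgeR FDR = 0.187 and 0.0898). Level and fold change were not ordered alike (Spearman's rho 0.03 across the 76 members, which share the libraries). Members with longer exons had lower RPKM (rho = -0.66), a relation to the length that the RPKM itself is divided by.

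The lowest member was Mrpl23, which encodes uL23m at the tunnel exit. It was at 2.14, 1.80 and 2.29 TMM-scaled RPKM in siNC and at 1.47, 1.71 and 1.37 in siQk, from 65 to 174 tags per library. Its log2 fold change of -0.46 equalled that of Mrpl48 to 2 decimals, but its SE was 0.19, more than that of any other member, and it was not called (edgeR FDR = 0.0990). The groups did not overlap. Mrpl23 has a processed pseudogene, Mrpl23-ps1, on chromosome 2. The next lowest in siNC were Mrpl35 (6.61 ± 0.18), Mrps10 (6.77 ± 0.43), Mrpl1 (6.79 ± 0.29) and Mrpl17 (6.90 ± 1.33), whose order does not exceed their spread. None of these was called, and their log2 fold changes were 0.11, -0.16, 0.00 and -0.11. Mrpl17 was at 5.38 in siNC replicate 2 and at 7.45 and 7.87 in the others.

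Members just outside the call were chosen after their values were seen. Mrpl3 (uL3m, close to the peptidyl transferase center) was at 31.2, 34.1 and 35.4 TMM-scaled RPKM in siNC and at 43.9, 45.3 and 37.0 in siQk. Its log2 fold change of 0.33 exceeded those of 4 members that rose, but its P of 0.0110 missed the limit (edgeR FDR = 0.0345). Mrps33 (mS33, a small subunit protein added in mitochondria) was at 30.9, 23.3 and 24.7 in siNC and at 20.7, 20.7 and 19.6 in siQk (log2 fold change -0.37, SE 0.12, edgeR FDR = 0.0462, P above the limit of 0.01). Both had ranges that did not overlap between groups, and both were called in some of the 15 alternative settings, Mrpl3 in 7 and Mrps33 in 3.

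By subunit, 4 members of the large subunit rose (Mrpl4, Mrpl32, Mrpl47 and Mrpl37) and 1 fell (Mrpl48), out of 49 (10.2% called). In the small subunit 2 rose (Mrps15 and Mrps5) and 1 fell (Mrps6), out of 26 (11.5% called). Of all genes tested, 31% were called, 13.8% higher and 17.2% lower. Median log2 fold changes were 0.07 and 0.12. Among proteins with a bacterial counterpart, 3 of 30 in the large subunit rose and none fell, and 2 of 16 in the small subunit rose and 1 fell, with medians of 0.08 and 0.13. Among proteins added in mitochondria, 1 of 19 in the large subunit rose and 1 fell (median 0.06). None of the 10 in the small subunit was called by edgeR (median 0.07), though 2 had an unadjusted p below 0.05. Differences between these classes were not tested.

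Summed over the 49 large subunit members, the TMM-scaled CPM, that is tags scaled to the library total and the TMM factor, were 2011, 1904 and 2049 in siNC and 2116, 2115 and 2031 in siQk. For the 26 small subunit members they were 1026, 942 and 1004 in siNC and 1050, 1058 and 1041 in siQk. The sums of the large subunit overlapped between the groups, and those of the small subunit did not, with siNC replicate 2 lowest in both. The ratio of large to small subunit CPM was 2.01 ± 0.04 in siNC and 1.99 ± 0.03 in siQk (SD, n = 3), so that the balance of the subunits differed by less than the spread between libraries. All members together amounted to 2992 ± 115 TMM-scaled CPM in siNC and 3151 ± 56.1 in siQk, a ratio of 1.05. Without TMM scaling they took 0.284% ± 0.016 and 0.332% ± 0.009 of the tags, a ratio of 1.17, since the TMM factors were higher in siQk.

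**Figure D3:**
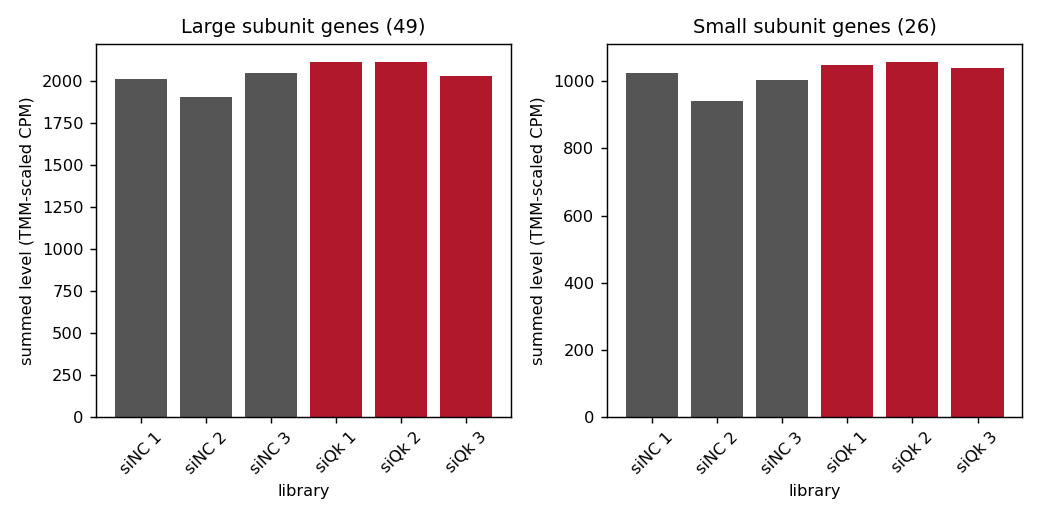
Summed TMM-scaled CPM of the large subunit members (left) and the small subunit members (right) in each of the 6 libraries, grey for siNC and red for siQk, with axes from 0. Large subunit sums run from 1904 to 2116 and small subunit sums from 942 to 1058.

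The paralogs Mrps18a, Mrps18b and Mrps18c, which encode related proteins placed at different sites of the mitoribosome, were compared as a family. Mrps18a was at 58.8, 49.5 and 63.5 TMM-scaled RPKM in siNC and at 51.6, 52.9 and 51.4 in siQk (log2 fold change -0.14, 95% interval -0.38 to 0.09). Mrps18b was at 19.5, 16.5 and 17.3 in siNC and at 17.99, 19.6 and 17.8 in siQk (0.06, interval -0.17 to 0.28). Mrps18c was at 56.8, 50.8 and 55.2 in siNC and at 65.6, 62.6 and 57.8 in siQk (0.19, interval 0.01 to 0.38). The groups overlapped for Mrps18a and Mrps18b and not for Mrps18c, and none was called (edgeR FDR = 0.297, 0.656 and 0.0883). Mrps18b stood lower than the other two in every library.

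Proteins of the mitoribosome whose symbols fall outside the rule were read beside the members. Of 7 such genes, Ptcd3 and Dap3 rose and none fell (28.6% called, beside 31% of all genes tested). The 7 had a median log2 fold change of 0.10 (0.09 without Mrp63). Mrp63 was added to the list after its symbol had been seen in the files. Ptcd3, a pentatricopeptide protein of the small subunit, was at 18.04, 17.9 and 19.1 TMM-scaled RPKM in siNC and at 23.8, 22.8 and 22.1 in siQk (log2 fold change 0.32, SE 0.06, edgeR FDR = 0.00760). Dap3, the GTP-binding protein of the small subunit, was at 19.7, 18.3 and 19.1 in siNC and at 22.4, 22.6 and 21.1 in siQk (0.21, SE 0.06, edgeR FDR = 0.0289). Neither gene overlapped between groups. The call of Dap3 was lost without any 1 of the 6 libraries (edgeR P up to 0.0361). Ict1, a peptidyl-tRNA hydrolase built into the large subunit, had lower means in siQk (-0.15) without a call, and Aurkaip1, Chchd1, Gadd45gip1 and Mrp63 had log2 fold changes of 0.02, 0.08, 0.10 and 0.12.

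Of all genes tested, 13.8% were called higher and 17.2% lower. Of 26 tested factors that assemble the mitoribosome, 5 rose (19.2%) and none fell, with a median log2 fold change of 0.10. The greatest of these was Mettl17, which acts in small subunit assembly, at 12.5, 11.4 and 11.9 TMM-scaled RPKM in siNC and at 18.4, 18.4 and 16.7 in siQk (0.58, SE 0.08, edgeR FDR = 0.00297). Rbfa, a small subunit maturation factor, rose by 0.38 and C1qbp, a matrix protein that binds RNA, by 0.28 on the log2 scale (edgeR FDR = 0.0315 and 0.0267). Of 15 mitochondrial translation factors tested, 1 rose (6.67%) and none fell, with a median of 0.16. That was Tufm, the elongation factor that brings aminoacyl-tRNA to the ribosome (0.40, edgeR FDR = 0.0165). Of 25 listed factors of mitochondrial DNA and RNA, 20 were found under the symbols searched and were tested. Among these 20, 6 rose (30%) and none fell, with a median of 0.26. They included Polg, the catalytic subunit of the mitochondrial DNA polymerase (0.46, edgeR FDR = 0.00688), Fastkd5, which processes mitochondrial RNA (0.43, edgeR FDR = 0.0159), and Polrmt, the mitochondrial RNA polymerase (0.39, edgeR FDR = 0.00614). Mettl17, Polg and Polrmt were called in all alternative settings. The calls of Rbfa, C1qbp, Tufm and Fastkd5 were each lost without siNC replicate 1 and without siQk replicate 1 or 2, among other settings (edgeR P up to 0.0366, 0.0324, 0.0170 and 0.0149).

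Cytosolic ribosomal proteins and nuclear OXPHOS subunits were read beside the members. Of 78 cytosolic ribosomal protein genes tested, 12 rose and 1 fell (16.7% called), with a median log2 fold change of 0.25 and 72 fold changes above 0. With library size as the only scaling 39 were called higher and none lower (median 0.40), which is 50%, beside 34.8% of all genes tested. With upper quartile factors 19 were called higher and 1 lower (25.6% called, beside 32.1%). With the replicate block 4 were called higher and 1 lower (6.41% called, beside 22.4%). Rplp0 of the ribosomal stalk rose most (0.77, edgeR FDR = 0.0215), Rpl17 rose by 0.59 (edgeR FDR = 0.0209), and Rpl5 fell by 0.44 (edgeR FDR = 0.00962). Without siNC replicate 2, or without siQk replicate 1 or 2, Rplp0 and Rpl17 were no longer called (edgeR P up to 0.0192 and 0.0269). These genes have many processed pseudogenes, so that their counts are uncertain to that degree. Of 75 nuclear OXPHOS subunit genes tested, none rose and 2 fell (2.67% called, beside 31% of all genes tested), with a median of -0.03. The 2 were Sdhc of complex II and Ndufa7 of complex I (-0.24 and -0.23, edgeR FDR = 0.0179 and 0.0202). Both calls ended without siNC replicate 1 or any 1 siQk library (edgeR P up to 0.0234 and 0.0246). The OXPHOS median turned to 0.03 with upper quartile factors and to 0.12 with library size as the only scaling. With the latter, 7 OXPHOS genes were called higher and none lower (9.33%, beside 34.8% of all genes tested). Median absolute log2 fold changes were 0.08 for the OXPHOS subunits, 0.12 for the mitoribosome members, 0.26 for the cytosolic ribosomal proteins and 0.25 for all genes tested. The groups' differences were not tested. The share of cytosolic ribosomal protein genes called was 42.3% without siNC replicate 3, beside 29.7% of all genes tested. It was 5.13% without siNC replicate 2, siQk replicate 1 or siQk replicate 2, beside 28.6%, 19.8% and 21.5% of all genes tested.

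**Figure D4:**
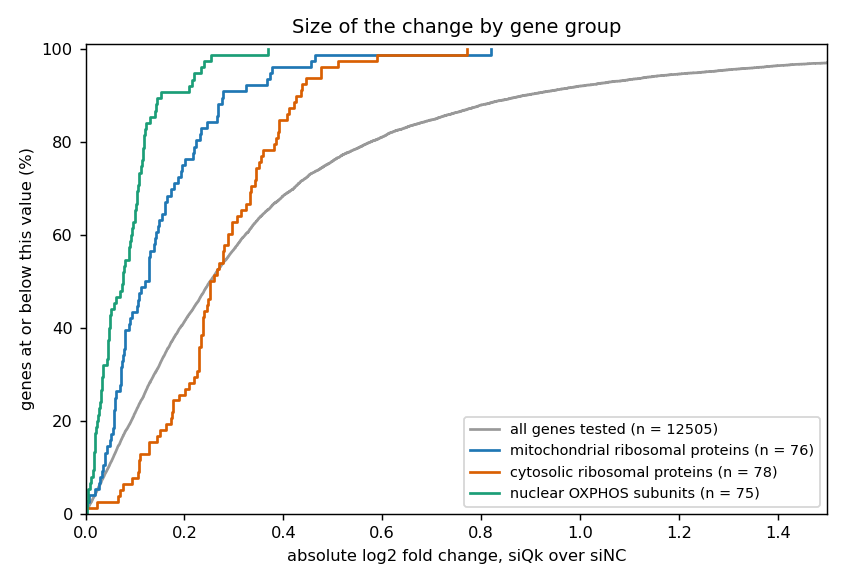
Cumulative percent of genes (vertical axis) at or below each absolute log2 fold change (horizontal axis, shown up to 1.5) for the 76 members, 78 cytosolic ribosomal protein genes, 75 nuclear OXPHOS subunit genes and all 12505 genes tested. By median, the member curve (0.12) lies between those of the OXPHOS subunits (0.08) and the cytosolic ribosomal proteins (0.26).

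Transcription of mitoribosome genes is known to depend on factors such as NRF1, the ETS factor GABP and YY1, and MYC is known to raise many ribosome genes. Of 11 such regulators tested, Myc rose from 18.2, 14.1 and 19.4 to 32.9, 37.6 and 24.8 TMM-scaled RPKM (log2 fold change 0.88, SE 0.18, edgeR FDR = 0.0108), and none fell. The genes of NRF1, GABP and YY1, also chosen after their values were seen, were not called. Nrf1 had a log2 fold change of 0.12 (edgeR FDR = 0.326) and Yy1 one of -0.01 (edgeR FDR = 0.880). Gabpa, the DNA-binding subunit of GABP, was lower in every siQk library (27.4 ± 3.07 against 22.0 ± 0.67, log2 fold change -0.31), with an edgeR P of 0.0102 just past the limit. The median over the 11 regulators was 0.12.

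Promoter windows were taken from RefSeq (GRCm38.p6), each with 250 bases before and 50 bases after a gene start, and were found for 67 of the 76 members (73 windows, of 32851 for all genes). Each was searched on both strands for GCATGCGC, the core letters of NRF1 sites, for CCGGAAG, letters of ETS sites, and for AAGATGGC, letters of YY1 sites. NRF1 letters were present in 8 of the 73 member windows and in 2.71% of all windows, ETS letters in 24 (32.9%) and 8.86%, and YY1 letters in 12 (16.4%) and 2.75%. At least 1 of the 3 was in 36 member windows (49.3%), and in 13.3% of all windows. All windows include those of genes that did not pass the filter on low counts, and shares over the genes tested were not computed. Whether the higher shares are particular to the members was therefore not tested. A match of letters is a description of the window and not a site at which a factor was measured. Of the members called changed, 7 had windows and Mrpl4 had none. Below, the windows of the members that were called in all settings and had a window with matches, and that of Mrps6, which had the greatest change and no match, are shown with the matched letters in capitals.
Mrpl32 promoter, chr13:14612988-14613287, minus strand: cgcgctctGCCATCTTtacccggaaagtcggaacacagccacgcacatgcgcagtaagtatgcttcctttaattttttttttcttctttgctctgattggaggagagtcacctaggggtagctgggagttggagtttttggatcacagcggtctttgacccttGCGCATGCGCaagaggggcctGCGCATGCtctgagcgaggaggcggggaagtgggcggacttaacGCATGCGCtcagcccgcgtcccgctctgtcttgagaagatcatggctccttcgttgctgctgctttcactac
Mrpl48 promoter, chr7:100583081-100583380, minus strand: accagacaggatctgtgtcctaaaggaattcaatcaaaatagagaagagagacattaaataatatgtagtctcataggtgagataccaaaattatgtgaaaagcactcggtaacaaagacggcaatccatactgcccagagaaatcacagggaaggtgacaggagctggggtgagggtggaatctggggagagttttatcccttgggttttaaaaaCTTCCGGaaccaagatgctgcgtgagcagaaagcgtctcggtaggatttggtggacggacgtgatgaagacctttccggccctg
Mrps6 promoter, chr16:92058086-92058385, plus strand: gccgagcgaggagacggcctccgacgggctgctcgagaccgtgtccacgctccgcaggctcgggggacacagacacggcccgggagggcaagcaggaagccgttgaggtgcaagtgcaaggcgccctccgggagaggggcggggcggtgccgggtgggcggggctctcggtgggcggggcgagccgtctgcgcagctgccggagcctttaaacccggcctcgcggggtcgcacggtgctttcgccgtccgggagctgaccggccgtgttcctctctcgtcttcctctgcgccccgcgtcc
Mrpl32 had 4 matches to the NRF1 letters, of which 2 overlap in a palindrome, and 1 to the YY1 letters. Of the 4 windows of Mrpl48, the one shown held the single match to the ETS letters. It lies inside the gene, whose minus-strand span starts at 100608301 in GENCODE M21. The other windows, all closer to that position, held none. Mrpl37 had 1 match to the YY1 letters, within the 50 bases after its start, and Mrps15, Mrpl47, Mrps5 and Mrps6 had none, which says only that these letters are absent from these windows. So members that rose were found both with and without matches, and for the members that fell the only match lay in this internal window of Mrpl48.

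The 76 members lie on 17 chromosomes. In GENCODE M21, 32 of them share exon bases with another gene and 23 with a protein-coding gene, 12 of these over at least 10% of their exon bases. For 20 members the protein-coding partner lies on the opposite strand and for 4 on the same strand. Reads in such stretches could have been counted for either gene, and values of those members are uncertain to that degree. GENCODE names 5 processed pseudogenes after members, 3 of them after Mrps36 and 1 each after Mrpl23 and Mrpl48.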

How the data were processed

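RNA-seq was made from 3 siNC and 3 siQk libraries of mOPCs, grouped by their sample titles. Reads were mapped to the mouse genome (mm10) with OLego and quantified with Quantas, whose versions are not given in the sources used here. The authors deposited for each library and gene an estimated count of tags (tag number), which can carry decimals and is not normalized, with the exon length. The authors also deposited RPKM, the tag number per exon length and per library total. Depth was 58166490 to 141045937 tags per library. For 3 libraries a group, differences within the spread between libraries were reported as such.

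After rounding to whole numbers, the counts entered edgeR (version 4.0.16, in R 4.3.3) and its quasi-likelihood F test, group being the only term, on genes with an average logCPM over 0. TMM factors were computed on those genes. The fit and the Benjamini-Hochberg adjustment covered the whole table, and rows of the members were read from it. SEs are the absolute log2 fold change over the square root of F, and 95% intervals use the total degrees of freedom of the test. This step was tested on simulated data with known fold changes. These were larger in size than the changes of all called members but Mrps6. The simulated spread was also below that between these libraries, so the test does not cover the smaller changes reported here. Libraries of 1 group differed by more than sampling noise (chi-square per degree of freedom 44.7 or more), so each counted as 1 replicate. Same-numbered libraries did not deviate together (correlations -0.05, -0.15 and -0.34), so the numbers were not taken as pairs.

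Genes named were Qk, the members called, the 5 highest and 5 lowest members by siNC level, Mrps18a to Mrps18c, mitoribosome proteins with other symbols, and up to 3 called genes at each end of the related lists. Some genes given by this rule are not reported here. The members, lists and subunit classes were chosen with earlier results of these data known. Alternatives were DESeq2 1.42.0, other scalings, filters and limits, a replicate block, thinning to the smallest library, and each library left out in turn. Positions are from GENCODE M21 and promoter sequences from RefSeq (GRCm38.p6).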

Additional observations from a re-analysis of the deposited data

How the results depend on the processing

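The number of members called and their median log2 fold change depended on the scaling. With library size as the only scaling, 19 members were called, 17 of them higher, with a median of 0.22, but the median of all genes tested then was 0.16, and with upper quartile factors 10 members rose, with a median of 0.13 beside 0.07 for all genes. The members' median exceeded that of all genes tested by 0.03 to 0.10 in every setting. At FDR below 0.05 without the limit on P, 13 members were called, 10 of them higher. With the replicate block, 4 members were called and 2 of them rose. Leaving out 1 library gave 3 to 7 called members, 2 to 5 higher and 1 to 4 lower, with the fewest without siQk replicate 2 and the most lower calls without siNC replicate 2 (7 called, 3 higher and 4 lower). There were 4 calls without siNC replicate 1 or siQk replicate 1, and 1 lower call without siQk replicate 3. DESeq2 called 12 members, RLE size factors 7, no filter on low counts 9, filterByExpr 10 and thinned libraries 6. The share of members called was lower than that of all genes tested in each of these settings (3.95% to 25%, beside 19.8% to 39.1%). Mrpl48, Mrpl4 and Mrpl32 were called in all 15 alternatives. In fold changes that were not called and lay near 0, the sign turned for Mrpl20 (0.024 with upper quartile factors, 0.12 with library size only, and -0.11 to 0.0031 with 1 library left out), Mrpl1 (0.057 and 0.15 likewise, 0.020 without a filter, 0.010 with filterByExpr, and -0.021 to 0.030 with 1 library left out), Aurkaip1 (-0.063 to 0.073 with 1 library left out), and, with library size only, Mrpl17 (0.039) and Mrps18a (0.0095). Of 674 values over 45 named genes, 552 kept their direction and side of the limits, 106 lost the call, 3 gained it and 13 turned sign. The cause of these shifts was not tested. Mrpl23 had the fewest tags of the members (65 to 174 per library), and it left the test without siNC replicate 3.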
